A study of Homo sapiens with 4 samples.

Results

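The genes described here encode AP-1, a family of dimeric transcription factors. They are the FOS genes FOS, FOSB, FOSL1 and FOSL2, the JUN genes JUN, JUNB and JUND, the stress-induced member ATF3 and the small MAF protein MAFF. The 9 genes were taken by name from 62710 Ensembl genes in the deposited table, and all 9 were found there. AP-1 proteins share a basic region that touches DNA and a leucine zipper that joins 2 proteins into a dimer. JUN proteins can pair with each other or with FOS proteins, whereas FOS proteins need a partner, and dimers bind the sequence TGANTCA or the related cyclic AMP response element TGACGTCA. Several of the genes are immediate early genes, whose short-lived mRNAs appear within minutes of growth factor, calcium or stress signals.

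The mRNA came from 2 human gastric cancer lines, HGC27 and MKN45. HGC27 is an undifferentiated line from a nodal metastasis, and MKN45 is a poorly differentiated adenocarcinoma line. Cells of each line received periplocymarin at 0.3 µM, or the vehicle DMSO at 0.1%, for 24 h, and 1 library was made for each line and treatment. Periplocymarin is a plant cardiac glycoside, a steroid that blocks the sodium and potassium pump of the cell membrane. A difference within a line rests on 1 library a group, so it carries no p-value, and the interval given for it is a 95% Clopper-Pearson interval that covers counting error only. Levels were taken as FPKM from the values themselves, since no header names the unit. FPKM are scaled to gene length and library size and can be compared between genes. The FPKM values step by whole reads, and the reads recovered in this way came to between 24850336 and 36467227 for a library. A fold change within a line is the ratio of reads per effective library size, which equals the ratio of the FPKM values.

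The label of gastric cancer cells was set against markers. Of 7 epithelial markers, such as EPCAM and the keratins KRT8 and KRT18, 6 stood below 1 FPKM in vehicle HGC27 and 7 in treated HGC27, with summed levels of 8.34 and 0.479 FPKM, while all 7 were above 1 FPKM in both MKN45 libraries, at 1683 and 2978 FPKM. Most of the HGC27 difference lay in ESRP1, at 7.64 FPKM in vehicle and 0.0348 FPKM after the drug. The other 6 epithelial markers were below 1 FPKM in both HGC27 libraries. The 6 mesenchymal markers summed to 609.7 and 831 FPKM in HGC27 and to 1.13 and 0.589 FPKM in MKN45. Most of the HGC27 sum was VIM, at 406 and 380 FPKM, and COL3A1, at 147 and 349 FPKM. CDH2, at 0.0433 and 0 FPKM, was the only one below 1 FPKM in HGC27, while all 6 were below it in MKN45. Endothelial markers summed to at most 0.058 FPKM in a library. Of 5 leukocyte markers only lysozyme (LYZ), which stomach epithelium also makes, passed 1 FPKM, with summed levels of the list of 161 and 125 FPKM in the MKN45 libraries and at most 0.370 FPKM in HGC27. Mitochondrially encoded genes took a smaller share of reads after the drug, 3.39% against 6.91% in HGC27 and 5.13% against 11.1% in MKN45. Values with these genes left out are given for differences that changed sign and for some others that moved.

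The members lie on separate chromosomes or far apart. In GENCODE 29 on GRCh38, FOS is at chr14:75278774-75282230, FOSB at chr19:45467995-45475179, FOSL1 at chr11:65892049-65900573 and FOSL2 at chr2:28392448-28417312. JUN is at chr1:58780788-58784327, JUNB at chr19:12791496-12793315 and JUND at chr19:18279760-18281622. ATF3 is at chr1:212565334-212620777 and MAFF at chr22:38200767-38216511. FOSL1, JUN and JUND are on the minus strand and the other members on the plus strand. JUNB shares 259 of its 1820 exonic bases with HOOK2 on the opposite strand. No strand setting is given in the sources used here, so reads from that stretch cannot be told apart. FOSB, FOSL2 and MAFF overlap other gene models without a shared exonic base.

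Promoter sequences show what most of these genes have in common outside the protein. They were read from RefSeq on GRCh38.p14, which matched 8 of the 9 members with 10 promoters (not FOSL1), and the 250 bases before each RefSeq start were searched. These starts can differ from the GENCODE positions above. The printed stretches of FOSL2, JUN and MAFF lie inside those gene spans, and that of FOS overlaps its edge. The stretches below, 30 bases each and in the direction of the gene, carry a match like the cyclic AMP response element, printed in capitals.
FOS, chr14:75278752-75278781: tggttgagcccgTGACGTttacactcattc
FOSB, chr19:45467924-45467953: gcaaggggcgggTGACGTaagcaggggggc
FOSL2, chr2:28392780-28392809: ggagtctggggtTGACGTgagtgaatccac
JUN, chr1:58784096-58784125: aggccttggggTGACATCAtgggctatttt
JUND, chr19:18281804-18281833: ggccgcccccaTGACGTCAacccacaaggc
ATF3, chr1:212565273-212565302: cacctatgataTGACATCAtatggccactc
MAFF, chr22:38201929-38201958: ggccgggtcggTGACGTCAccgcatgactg
The capitals mark TGACGT or TGACNTCA, searched on both strands, where a TGACGTCA match counts for both. The first was found in promoters of 5 of the 8 members and in 7.1% of 35114 promoters, and the second in 4 members and 6.87% of promoters. One or the other was present in 7 of the 8 members, all but JUNB, and in 12.1% of all promoters. These motifs were chosen after the members' promoters had been read, so the counts describe them and test nothing. In FOS, FOSB, FOSL2, JUN and MAFF the first base of the match lies between positions -67 and -54 from the start, and in ATF3 it lies at -123. JUND has 1 match at -200 and another at -87.

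Other promoter motifs were searched in the same windows. The AP-1 site itself, TGANTCA on both strands, was in none of the 8 members' windows and in 6.57% of all promoters. The CArG box, the site of serum response factor, was in none of them and in 1.16% of all. A site more than 250 bases before a start lies outside the windows, so its absence here does not show that a gene lacks it. The box TATAAA, on the gene's strand, was in 4 members and 6.8% of promoters, at position -33 in FOS, -30 in FOSB, -31 in JUNB and -230 in a second promoter of ATF3. The GC box GGGCGG, on both strands, was in 7 of the 8 and in 42.6% of all. A match in these letters is not a measured binding site.

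**Figure D1:**
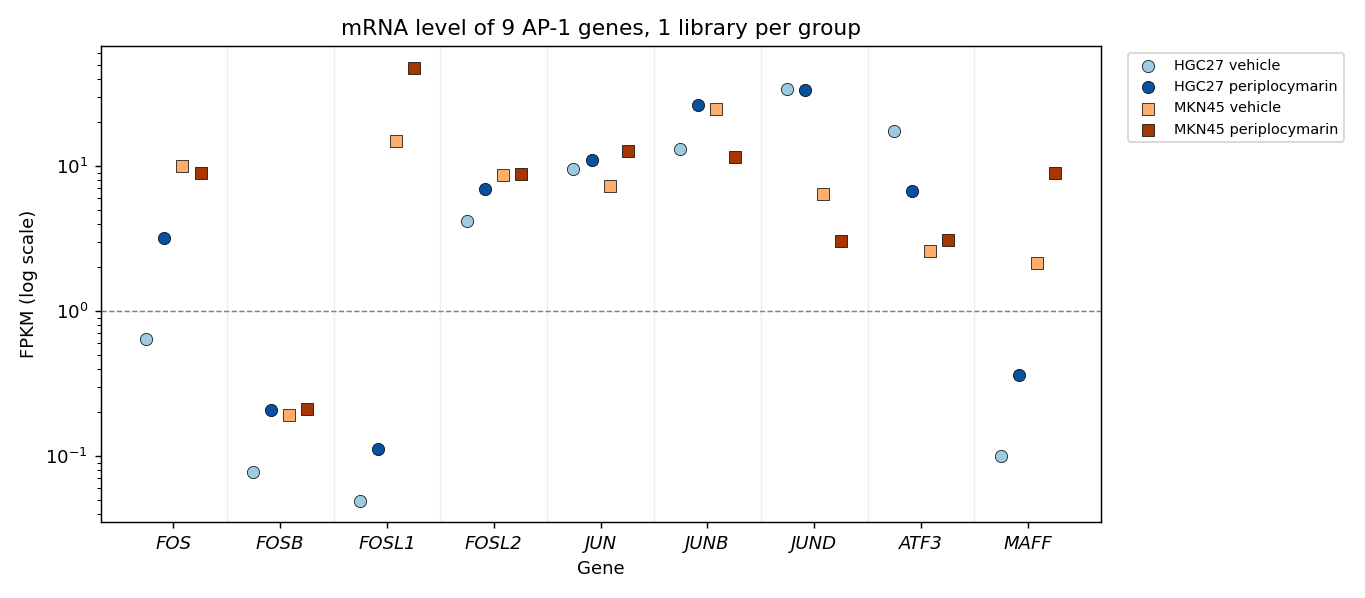
FPKM (log axis) of each AP-1 gene in the 4 libraries, 1 point per library, with circles for HGC27 and squares for MKN45, pale for vehicle and dark for periplocymarin. The dashed line is 1 FPKM. FOSL1 and MAFF lie below it in both HGC27 libraries and above it in both MKN45 libraries, and FOSB lies below it in all 4.

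The 2 lines held different AP-1 mRNAs before any drug. In vehicle HGC27 the JUN genes made up 71.6% and the FOS genes 6.29% of the summed FPKM of the 9 members, whereas in vehicle MKN45 the shares were 49.9% and 43.9%. The summed level was 79.1 FPKM in vehicle HGC27 and 76.7 FPKM in vehicle MKN45, or 95.3 and 77.5 with libraries scaled to their totals alone. JUND led in HGC27, followed by ATF3, JUNB, JUN and FOSL2. JUNB led in MKN45, followed by FOSL1, FOS, FOSL2, JUN and JUND. With 1 library each, the order of neighbours with close values is not replicated.

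FOSL1 stood furthest apart. Its vehicle level was 0.0493 FPKM in HGC27, from 3 reads, and 14.8 FPKM in MKN45, from 1031 reads. That is 301-fold higher in MKN45, with a wide counting interval of 103 to 1461. MAFF was 21.5-fold higher in vehicle MKN45 (13.4 to 36.6) and FOS 15.6-fold (12.2 to 20.3). The opposite order held for ATF3, 6.67-fold higher in vehicle HGC27 (5.99 to 7.45), and for JUND, 5.33-fold higher (4.81 to 5.91). FOSL2 was 2.06-fold and JUNB 1.89-fold higher in vehicle MKN45, and JUN was 1.31-fold higher in vehicle HGC27. On the log2(FPKM + 1) scale, where a difference of 1 is 2-fold, 8 members had a mean over the vehicle libraries of 1 FPKM or more. JUND and ATF3 were 2-fold or more higher in HGC27, and FOS, FOSL1 and MAFF were 2-fold or more lower, 5 of 8 in either direction. Over 13031 genes measured that way the shares were 14.3% higher, 17.4% lower and 31.6% in either direction. In the treated libraries the members at that distance were JUND at 3.10 and JUNB at 1.12 on the HGC27 side, and FOSL1 at -5.45, MAFF at -2.86 and FOS at -1.25 on the MKN45 side. The shares over 11681 genes were 16.5%, 19.1% and 35.6%. ATF3, at 0.91, had left that set and JUNB had joined it.

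FOS, the founding member, is kept low in resting cells. It stood at 0.642 FPKM in vehicle HGC27 and 3.17 FPKM in treated HGC27, from 66 and 238 reads, and MKN45 held 10.02 FPKM in vehicle and 8.95 FPKM after treatment. The treated HGC27 level was 4.94-fold the vehicle level (3.75 to 6.59), and the treated MKN45 level was 0.893 of its vehicle level (0.811 to 0.982). FOS was therefore higher after the drug in HGC27 and slightly lower in MKN45, and both HGC27 values stayed below both MKN45 values.

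FOSL1, which encodes FRA1, is induced by ERK signalling and lacks the transactivation domain of FOS. In MKN45 it went from 14.8 to 47.7 FPKM, 3.22-fold (2.99 to 3.47), and became the most abundant of the 9 mRNAs in that library. In HGC27 it was at 0.0493 and 0.112 FPKM, from 3 and 5 reads, and the interval of that ratio, 0.444 to 14.7, spans no difference. The gene was thus barely detected in HGC27 under either condition.

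FOSL2, which encodes FRA2, was the steadier of the FRA genes. Vehicle HGC27 held 4.21 FPKM and treated HGC27 6.94 FPKM, a ratio of 1.65 (1.51 to 1.80). The MKN45 levels of 8.67 and 8.75 FPKM gave a ratio of 1.01 (0.945 to 1.08). Its MKN45 difference of 0.012 on the log2(FPKM + 1) scale turned to -0.19 with libraries scaled to their totals alone. FOSB, a close relative of FOS, was below 1 FPKM in every library, with 0.0781 FPKM in vehicle and 0.206 FPKM in treated HGC27, and 0.191 and 0.211 FPKM in the MKN45 pair, from 14 to 39 reads. It was not tested.

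JUN, the main partner of FOS, differed by under 2-fold in both lines. Its vehicle levels were 9.49 FPKM in HGC27 and 7.25 FPKM in MKN45, and its treated levels 11.02 and 12.7 FPKM. The MKN45 ratio was 1.76 (1.61 to 1.92) and the HGC27 ratio 1.16 (1.06 to 1.27), and the HGC27 difference of 0.20 turned to -0.12 with libraries scaled to their totals alone. Both treated values lie above both vehicle values on the deposited scale.

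JUNB, a weaker activator than JUN that can oppose it, went in opposite directions. It stood at 13.0 and 26.3 FPKM in HGC27, a ratio of 2.02 (1.84 to 2.22). The HGC27 difference of 0.96 on the log2(FPKM + 1) scale was 0.64 with libraries scaled to their totals alone. It was 0.59 with quantile normalization and 0.59 with mitochondrially encoded genes left out. In MKN45 JUNB stood at 24.6 and 11.6 FPKM, a ratio of 0.472 (0.426 to 0.521). The high values are thus treated HGC27 and vehicle MKN45, and the treatments overlap. HOOK2, which shares part of its exons, was lower after the drug in both lines, at 1.035 against 5.449 FPKM in HGC27 and 3.002 against 7.205 FPKM in MKN45, and its part in the JUNB values was not tested.

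JUND, the JUN gene that is usually expressed in resting cells, differed by line more than by drug. It was at 34.2 and 33.5 FPKM in HGC27, a ratio of 0.979 (0.916 to 1.05). That near absence of a difference depends on the scale. The HGC27 difference of -0.03 on the log2(FPKM + 1) scale was -0.37 with libraries scaled to their totals alone. It was -0.42 with mitochondrially encoded genes left out and -0.56 with quantile normalization. In MKN45 JUND was at 6.41 and 3.02 FPKM, from 456 and 139 reads, a ratio of 0.471 (0.387 to 0.571). Both HGC27 values lie above both MKN45 values.

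ATF3, a stress-responsive member that often represses, was lower after the drug in HGC27 and not in MKN45. The HGC27 level went from 17.4 to 6.70 FPKM, a ratio of 0.386 (0.353 to 0.421). The MKN45 levels were 2.61 and 3.10 FPKM, a ratio of 1.19 (1.02 to 1.39). The MKN45 difference of 0.19 was 0.019 with libraries scaled to their totals alone and -0.050 with totals that also leave out mitochondrially encoded genes. Both HGC27 values lie above both MKN45 values.

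MAFF, a small MAF protein with a zipper but no activation domain, was higher after the drug in both lines. It stood at 0.0994 and 0.363 FPKM in HGC27, from 18 and 48 reads, a ratio of 3.65 (2.09 to 6.67). In MKN45 it went from 2.14 to 8.92 FPKM, a ratio of 4.18 (3.74 to 4.67). The intervals of the 2 ratios overlap, and the MKN45 levels are far higher.

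**Figure D2:**
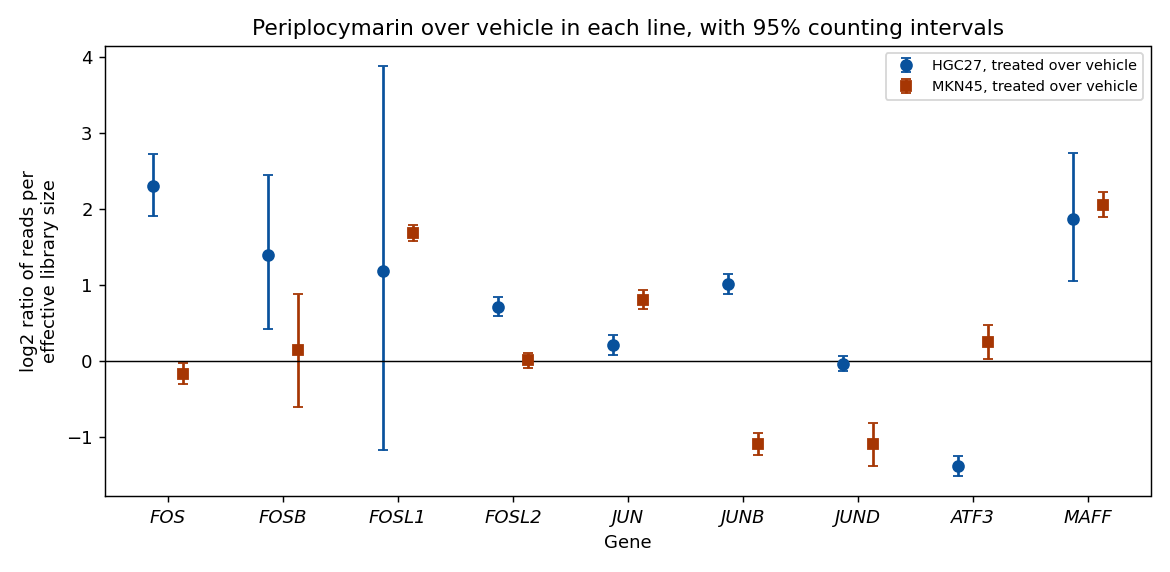
Treated over vehicle ratio of each AP-1 gene in each line, as log2 of reads per effective library size, with 95% Clopper-Pearson counting intervals as bars (circles HGC27, squares MKN45, 1 library per group). MAFF lies above 0 in both lines, at 1.87 and 2.06, whereas FOS, JUNB and ATF3 lie on opposite sides of 0 in the 2 lines.

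Counted by line on the log2(FPKM + 1) scale, 6 members were measured in HGC27, where its 2 libraries had to average 1 FPKM or more. FOS passed 2-fold upward, at 1.35, and ATF3 downward, at -1.25. JUNB lay just outside at 0.96. Among all 11821 measured genes 9.72% were 2-fold or more higher, 10.4% lower and 20.1% either. In MKN45 8 members were measured. FOSL1 and MAFF passed 2-fold upward, at 1.62 and 1.66, and JUNB downward, at -1.02, with JUND just outside at -0.88. Among all 11895 measured genes the shares were 8.21% higher, 8.94% lower and 17.2% either. With so few members, 2 of 6 and 3 of 8 past 2-fold cannot be set apart from these shares.

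The median difference of the measured members was 0.40 in HGC27 and 0.10 in MKN45, against 0.11 and 0.07 over all measured genes. Scaling libraries to their totals alone moved the median of all genes by -0.28 in HGC27 and by -0.18 in MKN45. Differences of the members therefore depend on the scale, as given above for JUN, FOSL2, JUNB, JUND and ATF3.

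**Figure D3:**
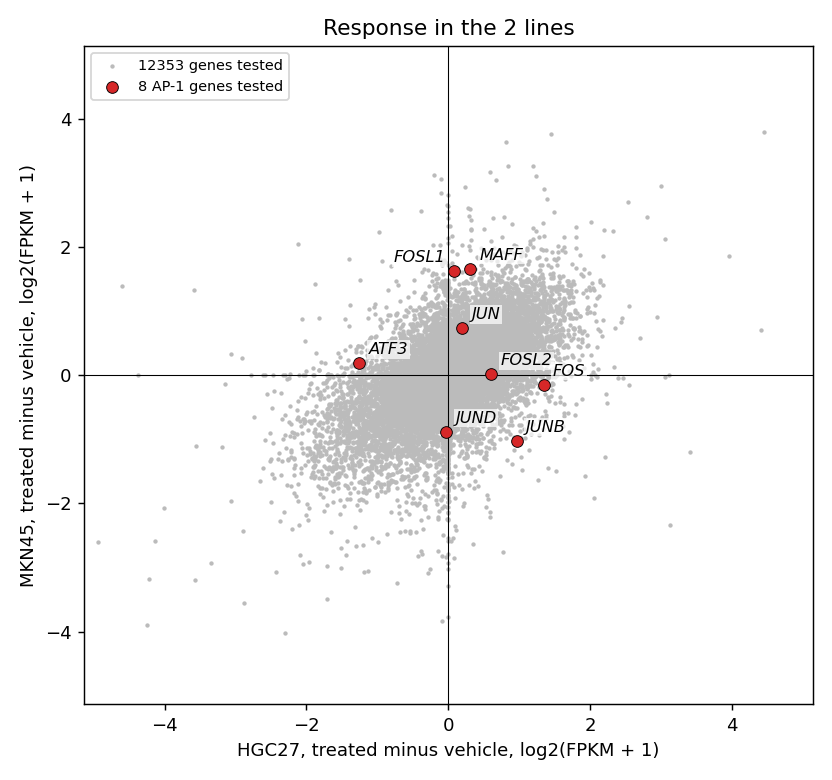
Treated minus vehicle difference of log2(FPKM + 1) in HGC27 (x axis) and MKN45 (y axis) for the 12353 genes tested over both lines (grey) and the 8 AP-1 genes among them (red). FOSL1 and MAFF sit high on the MKN45 axis, and JUNB sits in the lower right, at 0.96 and -1.02.

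The comparison over both lines asked which members moved alike after the drug. No member passed the test (limma-trend on log2(FPKM + 1), the line being the block, Benjamini-Hochberg adjusted p under 0.05), while 3.43% of 12353 genes rose and 3.17% fell, 6.61% in all. The median fitted difference was 0.39 over the 8 members tested and 0.06 over all genes. MAFF came closest, with a fitted difference of 0.99 ± 0.38 (moderated standard error, upward in both lines, limma adjusted p = 0.126). FOSL1 was next at 0.85 ± 0.38 (limma adjusted p = 0.175), from a difference of 1.62 in MKN45 and of 0.084 in HGC27, where its 3 and 5 reads give no direction. At an unadjusted p under 0.05 these 2 of the 8 members passed, both upward, as did 15.9% of all genes upward and 28.4% in either direction.

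The other fitted differences were smaller against their errors. FOS was at 0.60 ± 0.38, JUN at 0.47 ± 0.29, FOSL2 at 0.31 ± 0.30, JUNB at -0.03 ± 0.42, JUND at -0.46 ± 0.31 and ATF3 at -0.53 ± 0.37, with limma adjusted p from 0.319 to 0.973. With limma-voom on recovered reads, which adds no pseudocount of 1 FPKM, MAFF passed at 2.02 (adjusted p = 0.0230) and FOSL1 at 1.64 (adjusted p = 0.0337), where 6.92% of all genes passed upward and 12.3% in either direction, and 30.8% at an unadjusted p under 0.05. Over all settings run the adjusted p of MAFF lay between 0.0230 and 0.968 and that of FOSL1 between 0.0337 and 1. MAFF and FOSL1 averaged under 1 FPKM in HGC27, from 18 and 48 reads and from 3 and 5 reads. Their limma-voom values lay near their MKN45 log2 ratios, 2.06 for MAFF and 1.69 for FOSL1. The limma-voom passes therefore lean on the MKN45 pair. The test has 2 lines, 1 residual degree of freedom for each gene and 8.53 prior degrees of freedom from the other genes.

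Responses in the 2 lines stood apart for several members, with no test of the difference. Of the 6 members measured in both lines, 3 had responses 1 log2 unit or more apart, against 11.6% of 10071 genes. JUNB was 1.98 and FOS 1.49 higher in HGC27 than in MKN45, and ATF3 stood at -1.44. The same 3 had opposite signs, against 27.1% of those genes, on the deposited scale. With libraries scaled to their totals alone JUN (-0.12 in HGC27, 0.53 in MKN45) and FOSL2 (0.32 and -0.19) also had opposite signs. With mitochondrially encoded genes left out ATF3 was lower in both lines, at -1.63 and -0.050. Which members have opposite signs thus depends on the scale. FOSL1 and MAFF, at -1.54 and -1.35, were below 1 FPKM in HGC27, where the pseudocount shrinks a difference, so their gaps are not counted. As plain ratios FOSL1 stood at 2.28 against 3.22 and MAFF at 3.65 against 4.18. The 4 libraries leave no residual degree of freedom for a test of whether the response differs by line.

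**Figure D4:**
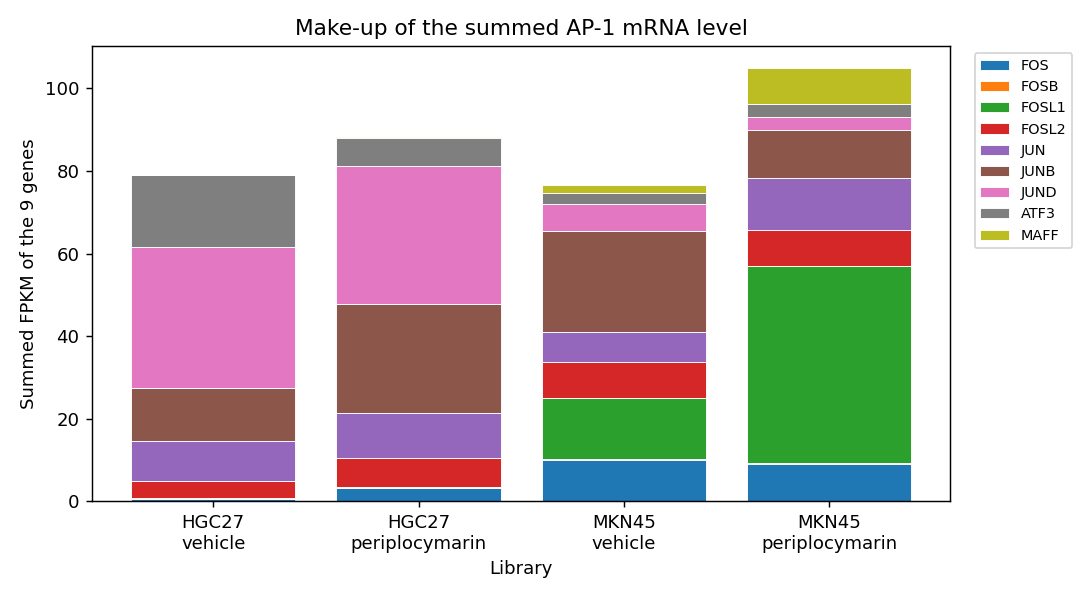
Summed FPKM of the 9 AP-1 genes in each library, stacked by gene, 1 library per bar. JUND and ATF3 make up most of the bar in vehicle HGC27, and FOSL1 makes up 45.4% of the bar in treated MKN45, where the sum is 105 FPKM.

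The make-up of the AP-1 mRNA shifted with treatment in each line. In HGC27 the JUN genes went from 71.6% to 80.2% of the summed level and the FOS genes from 6.29% to 11.8%, while ATF3 went from 22.0% to 7.60%. In MKN45 the FOS genes went from 43.9% to 62.5% and the JUN genes from 49.9% to 26.0%. FOSL1 alone went from 19.3% to 45.4% there, and JUNB from 32.0% to 11.0%. Shares within a library do not depend on how libraries are scaled. The sum does: it went from 79.1 to 88.3 FPKM in HGC27 on the deposited scale but from 95.3 to 83.7 with libraries scaled to their totals alone, and in MKN45 from 76.7 to 105 FPKM and from 77.5 to 90.8. In bulk libraries fewer cells of a type and less RNA per cell cannot be told apart.

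Genes around AP-1 were taken from lists of textbook members. Of 27 upstream kinases and activators 23 were tested, 2 rose, none fell and 21 did not pass. Their median fitted difference was 0.44 against 0.06 over all genes. List medians here and below were taken on the deposited scale only. On that scale, with a floor of 10 FPKM, 84.1% of the genes that passed were upward. A list of abundant genes can thus have a higher median than all genes. Both the counts and the median leave out genes averaging under 1 FPKM, and MAP2K6 and RPS6KA2 among these were lower after the drug in both lines. MAP2K6 had 1010 vehicle and 11 treated reads in HGC27, then 836 and 20 for MKN45. RPS6KA2 had 186 and 32 reads, then 653 and 31. Of the others left out, MAPK10 was lower in both lines and RPS6KA5 in MKN45 only. SRF, the factor that binds the serum response element of FOS, stood at 22.8 against 6.72 FPKM in HGC27 and 37.1 against 15.5 FPKM in MKN45, treated against vehicle, and rose by 1.41 ± 0.28 (limma adjusted p = 0.0286). MAP2K3, an activator of p38 kinases, went from 2.68 to 5.41 FPKM and from 30.1 to 97.8 FPKM, and rose by 1.23 ± 0.31 (limma adjusted p = 0.0477). MAP2K3 missed the threshold with libraries scaled to totals that leave out mitochondrially encoded genes (limma adjusted p = 0.0557), and passed with totals that keep them (adjusted p = 0.0420).

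Among 13 other AP-1 relatives 6 were tested and none passed, with a median fitted difference of 0.08. JDP2, a repressor that pairs with JUN, was 7.68 FPKM in treated against 10.95 in vehicle HGC27 and 0.590 against 7.66 FPKM in MKN45, with a fitted difference of -1.45 ± 0.43 (limma adjusted p = 0.0677). It passed with a pseudocount of 0.1, with quantile normalization and with libraries scaled to totals, mitochondrially encoded genes kept or left out. The limma adjusted p in those settings ran from 0.00824 to 0.0456. JDP2 missed the threshold with limma-voom (adjusted p = 0.0811), with no low-value filter and with no replicate block. Its difference was -0.46 in HGC27 and -2.44 in MKN45. MAFK, a small MAF protein like MAFF, was 6.03 against 3.84 FPKM in HGC27 and 26.6 against 8.08 FPKM in MKN45, with a fitted difference of 1.07 ± 0.33 (limma adjusted p = 0.0746). Like MAFF it was higher after the drug in both lines. It passed with limma-voom and with a floor of 10 FPKM.

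Of 6 partners of small MAF proteins 4 were tested and none passed, and the median fitted difference was 0.30, with BACH1, a repressor, at a fitted 0.70 ± 0.28 and NFE2L1, an activator, at 0.32 ± 0.30. NFE2L1 turned to -0.16 with quantile normalization and to -0.031 with mitochondrially encoded genes left out. Of 11 regulators of AP-1 protein turnover or of mRNA decay 10 were tested and none passed, with a median of 0.42. DET1 averaged under 1 FPKM and was left out. It had 221 vehicle and 13 treated reads in HGC27, then 384 and 12 for MKN45. The ubiquitin ligase genes ITCH and FBXW7, whose products act on JUN, had fitted differences of 0.78 ± 0.28 and 0.69 ± 0.30, upward in both lines.

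Of 32 textbook AP-1 target genes 23 were tested, none rose, VEGFA fell and 22 did not pass, with a median fitted difference of 0.38. VEGFA, an angiogenic growth factor with many other regulators, was 9.76 against 25.7 FPKM in HGC27 and 13.98 against 38.6 FPKM in MKN45, and fell by 1.36 ± 0.28 (limma adjusted p = 0.0291). AREG, a ligand of the EGF receptor, had 4 and 0 reads in HGC27 and went from 2.59 to 29.1 FPKM in MKN45, with a fitted difference of 1.48 ± 0.59 (limma adjusted p = 0.140). With limma-voom AREG passed at 2.78 (adjusted p = 0.0405). That pass rests on the MKN45 pair, since the 4 and 0 reads in HGC27 show no rise there.

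Within each line the targets were counted among those averaging 1 FPKM or more there, and the genes in these counts are named with their values seen. In MKN45 6 of 21 measured targets were 2-fold or more higher and 2 lower, beside 8.21% and 8.94% of all measured genes. They were PTGS2 at 3.12, AREG at 3.07, CXCL8 at 2.42, EZR at 1.56, CCND1 at 1.37 and DUSP1 at 1.17 on the log2(FPKM + 1) scale, and VEGFA at -1.40 and the collagenase MMP1 at -1.33 were lower by as much. In HGC27 3 of 12 measured targets were higher and 1 lower, beside 9.72% and 10.4% of all measured genes. There HMOX1 at 1.42, MMP14 at 1.08 and GJA1 at 1.03 were higher by 2-fold or more and VEGFA at -1.31 lower. PTGS2, AREG, CXCL8 and MMP1 were below 1 FPKM in HGC27 and GJA1 in MKN45, so these sets cannot be compared for overlap. The lists were chosen with earlier results of these data known, so the counts describe the targets and test nothing.

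Likeness to other genes was measured as the Euclidean distance between profiles of log2(FPKM + 1) over the 4 libraries, each centred on its mean, among 11811 genes. JUNB lay nearest to EIF4EBP2 (0.066), whose levels were 9.695 FPKM in vehicle and 19.4 FPKM in treated HGC27, then 18.95 and 9.01 FPKM for MKN45. FOS lay nearest to CYSTM1 (0.257), FOSL1 to NCEH1 (0.357), MAFF to CDKN2AIP (0.212), JUND to SOX12 (0.092) and ATF3 to ZNF512B (0.12). JUN and FOSL2 lay nearest to DUSP3 (0.035) and RPS7 (0.048), and their profiles were common, with 1203 and 870 genes within 0.5. FOSL1 had 4 genes and FOS 13 within that distance. With 4 libraries such a match is a description.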

How the data were processed

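The authors deposited 1 table of 62710 Ensembl genes by 4 libraries. No header names its unit, and from the values the deposited unit was taken as FPKM. Per the submitters' processing notes, fastp 2.0, HISAT2 2.1.0 and hg38 were used. For the counter, annotation and strand the setting is not given in the sources used here. Groups came from sample titles. Reads were recovered from the steps of the low values: 15195 of 30457 genes above 0 gave whole reads at their GENCODE 29 exon length. Of 20299 genes above 0 in at least 3 libraries, 20284 gave whole reads within 0.0001, at that length or at the nearest length that did. Effective library sizes divided by recovered totals were 1.20, 0.948, 1.01 and 0.864 for vehicle and treated HGC27 and vehicle and treated MKN45. Gene names came from a table of Ensembl IDs, which matched 62706.

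The test was limma 3.58.1 in R 4.3.3 (lmFit, eBayes with trend) on log2(FPKM + 1), cell line as a block, on genes averaging 1 FPKM or more and 10 recovered reads or more. A further 21 genes at 1 FPKM had neither length nor whole reads and were not tested. The line links the libraries of a pair. Tested on simulated reads with a coefficient of variation of 0.2 (11480 genes, 3 simulations), 8.79% of calls were false, and the fit called 47.2% of the genes changed 2-fold and 98.3% of those changed 4-fold. These rates belong to that setting. Whether they hold for the 4 libraries, with 1 library a group, was not tested. The test over both lines was planned as a count test for counts or limma-trend for other units. The members, lists and the read minimum were chosen with earlier results of these data known. Named genes were all members and, from each other list, up to 4 past the test by size, filled to 2 with the largest fitted differences. Alternatives were other scales, filters, a pseudocount of 0.1, limma-voom, removal of mitochondrially encoded genes, a fit without the line block, and, added later, no read minimum.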

Additional observations from a re-analysis of the deposited data

Results flagged for a closer look

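On the deposited scale the treated library of 3 members lay above vehicle in one line and below it in the other. Each line has 1 pair of libraries, and this difference was not tested. Which members have opposite signs changes with the scale, as given above for JUN, FOSL2 and ATF3. JUNB differed by 1.98 on the log2(FPKM + 1) scale, HGC27 response minus MKN45 response, at 0.96 in HGC27 and -1.02 in MKN45. FOS differed by 1.49, at 1.35 and -0.15. ATF3 differed by -1.44, at -1.25 and 0.19.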

How the results depend on the processing

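The count of 0 members past the test over both lines held under the other settings run except limma-voom, which gave 2 (FOSL1 and MAFF). The count over the 5 other lists, 3 in the main analysis, was 0 with no low-value filter and 0 with no replicate block (treatment only), where limma passed no gene at all and 4306 and 696 genes had an unadjusted p under 0.05. It was 8 with a pseudocount of 0.1, 10 with a floor of 10 FPKM and 13 with limma-voom. Members at least 2-fold higher in HGC27 numbered 1, and 2 with a pseudocount of 0.1 or with read ratios, which add JUNB. Other settings moved JUNB in HGC27 away from 2-fold, to 0.64 with totals alone, 0.59 with mitochondrially encoded genes left out and 0.59 with quantile normalization. Members at least 2-fold lower in MKN45 numbered 1, and 2 with libraries scaled to totals alone, with mitochondrially encoded genes left out, with a pseudocount of 0.1 or with read ratios, which add JUND. Differences that changed sign were JUN in HGC27 (-0.12 with totals alone, -0.17 with mitochondrially encoded genes left out, -0.055 with quantile normalization), FOSL2 in MKN45 (-0.19, -0.28 and -0.14 in the same order), ATF3 in MKN45 (-0.050 with mitochondrially encoded genes left out) and NFE2L1 over both lines (-0.16 with quantile normalization, -0.031 with mitochondrially encoded genes left out). Leaving out a line leaves no test. It gave -0.15 and 1.35 for FOS, 0.96 and -1.02 for JUNB and 0.19 and -1.25 for ATF3, so that each has 1 line against its fitted direction. Leaving out mitochondrially encoded genes also replaces the deposited scaling by totals. The cause of these moves was not tested. All genes passing numbered 424 higher and 392 lower, 359 and 1154 with totals alone (23.7% upward against 52.0%), 291 and 1317 with mitochondrially encoded genes left out (18.1%), 231 and 389 with quantile normalization (37.3%), 1055 and 199 with a floor of 10 FPKM (84.1%), 855 and 668 with limma-voom and 750 and 730 with a pseudocount of 0.1. Depth limits FOSL1, FOSB and MAFF in HGC27, which had 3 to 48 reads a library.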
